A study of Mus musculus with 2 samples.

Results

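The microRNA genes Mir143, Mir145a and Mir145b were followed in gastrocnemius, the large calf muscle, of growing mice. They were taken from the deposited tables as the rows whose Ensembl identifier carries 1 of these 3 names in the GENCODE M21 annotation, a rule that uses no measured value, and all 3 were found among 2202 microRNA genes. The samples were 2 biological replicates of 1 group, male B6CASTF1/J mice at 14 days of age, a first-generation cross between C57BL/6 and CAST/EiJ. The group carried no treatment, and there was no second tissue, age or sex. Both labels name 1 donor and mention several males, and whether a replicate was a single animal or pooled tissue is not said. The p-values and SDs below thus measure only how these samples differ, part of which may be technical.

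MicroRNAs are cut from hairpin transcripts and, as part of a silencing complex, lower the output of messenger RNAs that match their seed, a short stretch near the 5′ end. miR-143 and miR-145 are known from smooth muscle, where serum response factor and its partner myocardin drive them from 1 primary transcript. In the walls of arteries they favour the contractile state of the smooth muscle cell, and Klf4, Klf5 and Elk1 are among their known targets. Pericytes and other mesenchymal cells also make them, while skeletal muscle fibres are known for other microRNAs, such as miR-1, miR-133 and miR-206. The tables hold microRNA genes alone, so the smooth muscle origin of these reads could not be set against messenger RNAs that mark that cell. In a whole muscle, fewer cells of a type and less RNA per cell cannot be told apart.

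On mm10, Mir143 lies on the minus strand of chromosome 18 from 61649196 to 61649258 (ENSMUSG00000065445.3). Mir145a lies on the same strand from 61647825 to 61647894 (ENSMUSG00000065592.2), 1301 bases further along the direction of transcription. In GENCODE M21 neither overlaps another gene. The nearest gene upstream of Mir143 on its strand is the long non-coding RNA Carmn, at 61649625 to 61665537, which stops 366 bases short of it. RefSeq, on the same build, draws Carmn from 61645878 to 61665538, so that both Mir143 and Mir145a fall inside it. Bvht, another long non-coding RNA, ends 352 bases from Mir145a on the opposite strand. Mir145b (ENSMUSG00000098366.1) is no neighbour of the pair: it lies 7.37 Mb away on the same strand, from 69022199 to 69022273, with 70670 bases to the nearest annotated gene on that strand. None of the 3 genes matched an entry of the RefSeq microRNA sequence table used here.

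By counted reads, Mir143 was among the most abundant microRNA genes of the calf muscle, Mir145a was present at a far lower level, and Mir145b had no read. Levels are given in CPM, counts-per-million: the reads on a gene's own strand, scaled by all reads assigned to a microRNA gene. Mir143 had 97926 reads in replicate 1 and 74966 in replicate 2, which is 35692 CPM (95% Wilson interval 35473 to 35912) and 33902 CPM (33664 to 34141). Both libraries placed it at rank 8 of all genes by counted reads, and its mean was 34797 CPM ± 1266 (SD, n = 2). Multi-mapping reads, 44.0% of replicate 1 and 52.1% of replicate 2, are in no gene's count. Genes whose sequence is shared between loci may therefore stand too low in this order, by an amount that was not tested.

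Mir145a had 2776 reads in replicate 1 and 2252 in replicate 2, or 1012 CPM (975 to 1050) and 1018 CPM (977 to 1061). Those levels lay inside each other's intervals, and the mean was 1015 CPM ± 4.69. It ranked 73 in replicate 1, 74 in replicate 2 and 72 by the mean of both. Mir145b had 0 reads in both libraries, a result that still allows 1.09 CPM in replicate 1 and 1.36 CPM in replicate 2. It shared a count of 0 in both libraries with 1572 other genes of the table. PCR can copy 1 molecule into several reads, so these intervals and limits cover counting error only.

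**Figure D1:**
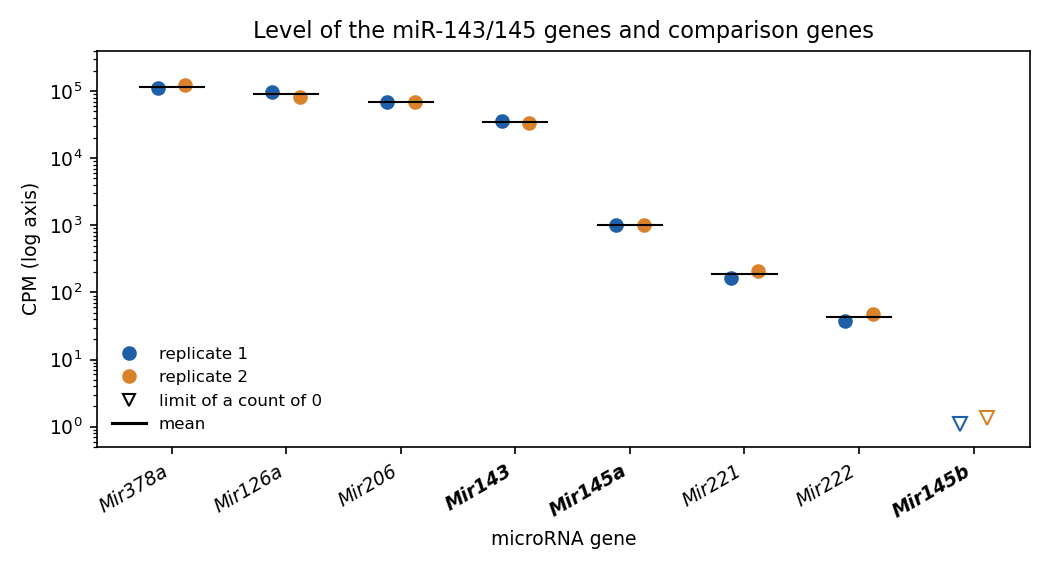
Level of each microRNA gene in CPM on a log axis, with 1 point per library, a line at the mean of both and, for Mir145b, open triangles at the level that a count of 0 still allows. Mir143 stands at 35692 and 33902 CPM, below Mir126a and Mir206 and above Mir145a, whose points at 1012 and 1018 CPM coincide.

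Together the members held 100702 reads in replicate 1 and 77218 in replicate 2, or 3.67% and 3.49% of assigned reads. That is 1 in 27.9 assigned reads on average, nearly all of it Mir143. Of the 57 microRNA genes on their chromosome, 17 had a read, and in both libraries 7 stood at 10 CPM or higher. The members held 24.8% of that chromosome's reads in replicate 1 and 22.0% in replicate 2. Most of the rest was Mir378a, which lies 250 kb from Mir145a in an intron of the metabolic coactivator gene Ppargc1b, at 117291 CPM ± 8973. All reads of the members were on their own strand: the opposite strand had 0 reads at each of the 3 genes in both libraries, and counts on either strand were the same as those on the own strand.

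In the order of counted reads, Mir143 was separated from its neighbours by more than the spread between libraries. The gene above it, Mirlet7g, had 42654 and 49919 CPM, and the gene below it, Mir23b, had 26006 and 29004 CPM, in replicates 1 and 2. Neither range reached that of Mir143. The 5 genes most like Mir143 in level were Mir23b, Mirlet7g, Mirlet7i, Mir411 and Mir379, by distance in log2(CPM + 1) over the 2 libraries. Those distances ran from 0.509 for Mir23b to 0.950 for Mir379.

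Mir145a sat in a crowded part of the order. The 5 genes nearest to it were Mir320 (1007 and 1050 CPM), Mir196a-2 (980 and 1046), Mir673 (1066 and 997), Mir324 (950 and 989) and Mir329 (897 and 1028), at distances of 0.045 to 0.174. The ranges of Mir673, Mir320, Mir196a-2 and Mir329 over the libraries took in that of Mir145a, so its order among those genes was not resolved.

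**Figure D2:**
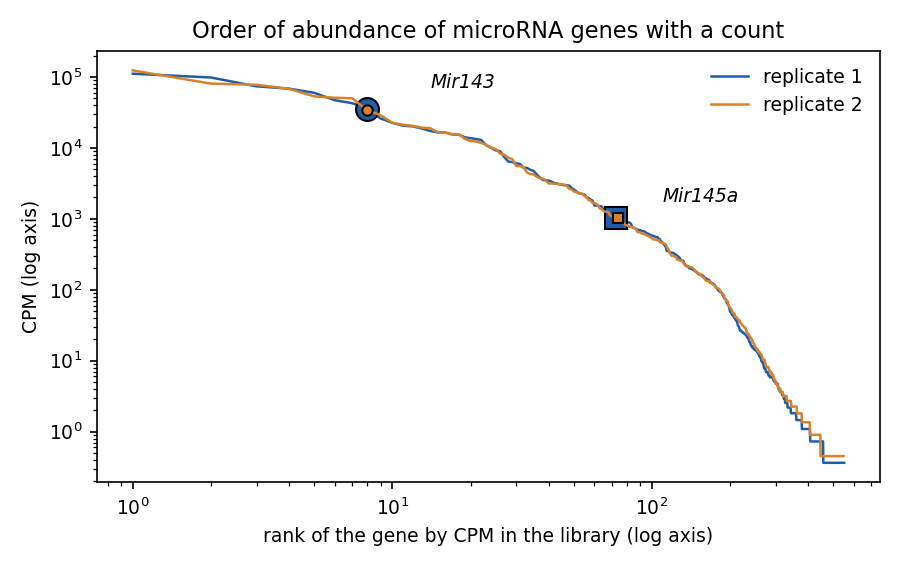
CPM of every microRNA gene with a read against its rank, both on log axes, with 1 line per library, circles for Mir143 and squares for Mir145a. Mir143 sits at rank 8 in both libraries on the upper slope, and Mir145a at ranks 73 and 74 where many genes have similar levels.

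The neighbours Mir143 and Mir145a differed far more from each other than either did between libraries. Mir143 had 35.3 times the reads of Mir145a in replicate 1 (95% exact interval 34.0 to 36.6) and 33.3 times in replicate 2 (31.9 to 34.7), a mean of 34.3 ± 1.41 (n = 2). The intervals overlapped. A two-sided Fisher's exact test of the split between the libraries gave p = 0.0448, and 0.0538 after Benjamini-Hochberg adjustment over the 6 ratios compared, so the shift did not pass at 0.05. Against Mir145b the difference is a lower bound, with 3 reads per library as the limit of a count of 0. Mir145a was at least 925-fold higher in replicate 1 and at least 751-fold higher in replicate 2, and Mir143 at least 32642-fold and 24989-fold higher.

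The counts belong to whole hairpins, so the mature arms of 1 hairpin (5′ and 3′) are summed. The hairpins are annotated at 63 bases for Mir143, 70 for Mir145a and 75 for Mir145b, and counts were not divided by length. No gene's count includes the multi-mapping reads, which made up 44.0% of replicate 1 and 52.1% of replicate 2. Mir145a and Mir145b carry the same number, which is given to related mature sequences, and a read that matched both loci equally would be in neither count. How many such reads there were was not tested.

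Among neighbouring microRNA genes that each reached 10 CPM, a gap of this size was uncommon in the same libraries but was not limited to this pair. Mir143 and Mir145a were set beside every other pair of microRNA genes that follow each other on 1 strand within 10 kb, each gene with at least 10 CPM in each library. There were 75 such pairs, with a median ratio of mean levels of 5.07-fold, and 25 of them were over 10-fold apart. A ratio above that of Mir143 to Mir145a was found for 12 pairs, 16.0% (95% Wilson interval 9.40 to 25.9). Many pairs share a cluster, so they are not independent. Pairs with a gene under 10 CPM, such as Mir29c (128.6 CPM) beside Mir29b-2 (2.82 CPM), were left out. The share therefore misses wide gaps in which the lower gene is near 0.

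The pairs nearest in ratio were Mir23a over Mir27a (34.9 ± 6.88, SD, n = 2), Mirlet7b over Mirlet7c-2 (35.3 ± 4.01), Mir541 over Mir377 (33.2 ± 7.72), Mir487b over Mir539 (32.3 ± 0.735) and Mir181b-2 over Mir181a-2 (29.1 ± 6.60). The widest was Mir206 over Mir133b, at 2716 ± 807. In 8 of the 12 pairs above Mir143 and Mir145a, the lower gene has 20 bases in common with another hairpin of the RefSeq table, among them Mir24-1, Mir199a-2 and Mirlet7c-1. Without the genes found to share such a stretch, 4 of 50 other pairs (8.00%) were above. Sequences were at hand for 103 of the 114 genes in these pairs, and not for Mir143 and Mir145a. Genes without a sequence, the members among them, were kept in that count without this check. Only 1032 of the 2202 genes had an entry, so a stretch shared with any other gene would be missed. The 4 pairs, Mir206 over Mir133b among them, are thus not shown to be free of shared sequence.

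**Figure D3:**
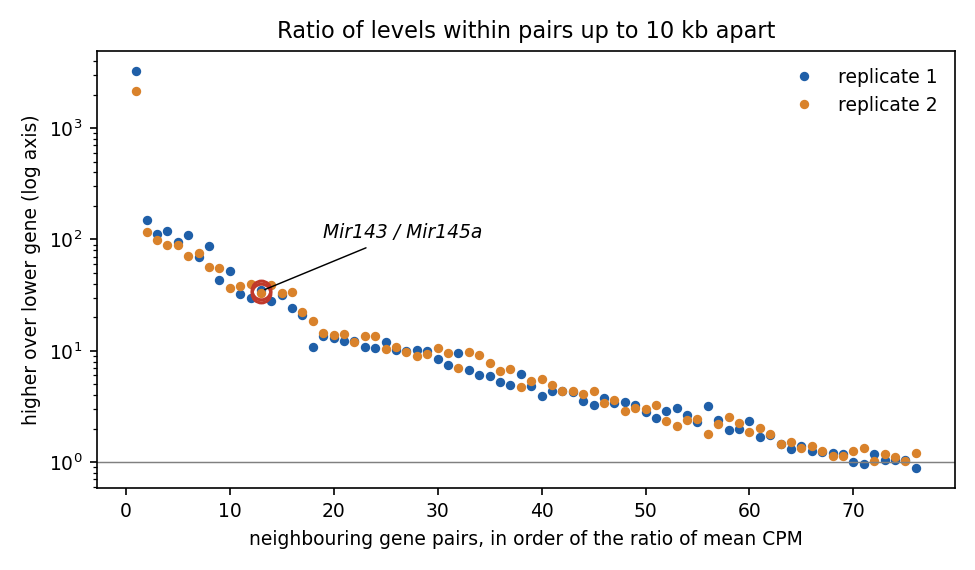
Ratio of the higher to the lower gene for 76 pairs of neighbouring microRNA genes, on a log axis, in order of the ratio of their mean levels, with 1 point per library. The circled pair Mir143 and Mir145a is the 13th of the order, at 35.3 and 33.3, above the median of 5.07 of the other pairs.

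The mature sequences of a few comparison genes, from RefSeq (GRCm38.p6), show what a shared sequence is and which microRNAs were set beside the members. Capitals mark the seed, bases 2 to 8. miR-24-3p is the same at Mir24-1, on chromosome 13, and at Mir24-2, on chromosome 8, so that its reads cannot be placed at 1 locus. miR-221-3p and miR-222-3p, known to favour growth of vascular smooth muscle cells, share 1 seed and differ after it. miR-126a-3p is known from endothelium and miR-206-3p from skeletal muscle.
miR-24-3p at Mir24-1: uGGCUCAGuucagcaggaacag
miR-24-3p at Mir24-2: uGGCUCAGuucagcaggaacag
miR-221-3p: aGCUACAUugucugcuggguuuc
miR-222-3p: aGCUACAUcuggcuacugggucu
miR-126a-3p: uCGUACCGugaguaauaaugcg
miR-206-3p: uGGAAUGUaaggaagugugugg

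Relative to other microRNAs known from vessels, Mir143 stood below the endothelial Mir126a. Mir145a stood above Mir221 and Mir222 but below Mir130a (3310 CPM ± 277), which is on the endothelial list given below. Mir126a had 2.75 times the reads of Mir143 in replicate 1 and 2.37 times in replicate 2, a mean of 2.56 ± 0.266 (n = 2). That ratio was lower in replicate 2 (Fisher's exact test on the reads of these libraries, adjusted p = 5.52e-144). Mir145a had 6.14 times the reads of Mir221 in replicate 1 and 4.93 times in replicate 2, and 27.0 and 21.4 times those of Mir222. The lower ratio to Mir221 in replicate 2 passed Fisher's exact test (adjusted p = 0.00355), and the ratio to Mir222 did not (adjusted p = 0.118). Mir206 had the most counted reads of the skeletal muscle genes listed below. Multi-mapping reads, as may come from the paired loci of Mir1a and Mir133a, are in no count. Mir206 was at 1.91 times Mir143 in replicate 1 and 2.00 times in replicate 2, a higher ratio in replicate 2 (Fisher's exact test, adjusted p = 2.75e-14). Mir378a was at 3.11 and 3.65 times Mir143, also higher in replicate 2 (Fisher's exact test, adjusted p = 7.46e-184). These tests compare the reads of 2 libraries and have no replicate check.

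Other microRNAs reported to act in vascular smooth muscle, a list of 24 genes that many other cells also express, all had a read, and 20 reached 10 CPM in both libraries. Together they held 4.29% and 4.17% of assigned reads, against 3.67% and 3.49% for the 3 members. Multi-mapping reads are not in that total, and the list holds paired loci of 1 microRNA (Mir1a, Mir24, Mir26a, Mir29b, Mir125b and Mir133a), so it may be too low by an amount that was not tested. The highest were Mir21a, which is widespread among cell types (16074 CPM ± 598), and the X-linked Mir322 (13175 CPM ± 388). Both levels were under that of Mir143 and above that of Mir145a. Mir100 (5798 CPM), Mir10a (3095 CPM) and Mir195a (1920 CPM) were also above Mir145a in counted reads, and the other genes of the list were below it. Those below include the paired loci named above, whose multi-mapping reads are not counted. Their place relative to Mir145a may therefore differ, which was not tested. Of the pairs of neighbours on this list, Mir322 was at 49.3 ± 8.42 times Mir503, Mir1a-2 at 14.7 ± 5.47 times Mir133a-1 and Mir221 at 4.37 ± 0.0254 times Mir222. Mir1a-2 and Mir133a-1 belong to the paired loci, so their ratio leaves out any multi-mapping reads of either.

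Marker lists of other cells were read in the same libraries. The endothelial list held 10.2% in replicate 1 and 8.39% in replicate 2, led by Mir126a and by Mir130a (3310 CPM ± 277), and the skeletal muscle list 6.95% and 6.92%, led by Mir206 and Mir486 (611 CPM ± 55.7). The members were below both. The fibroblast and connective tissue list held 0.723% and 0.626% (Mir214 and Mir140 leading), and the leukocyte list 0.155% in both (Mir146 and Mir155 leading). The erythroid list held 0.0384% and 0.0571% (Mir451a and Mir144), and the epithelial list 0.0168% and 0.0148% (Mir203 and Mir200c). Multi-mapping reads are in none of these totals. The skeletal muscle list holds paired loci of 1 microRNA (Mir1a and Mir133a), as does the fibroblast list (Mir199a). Their totals may be too low, and the order of their genes may differ, by an amount that was not tested. Every gene of these lists had a read in at least 1 library (6 endothelial, 9 skeletal muscle, 6 fibroblast, 6 leukocyte and 7 epithelial), except Mir451b, 1 of the 3 erythroid genes. Mir221 and Mir222 are on both the endothelial and the vascular smooth muscle list, and Mir155 is on the leukocyte and the vascular smooth muscle list. Mir1a-1, Mir1a-2, Mir133a-1 and Mir133a-2, 4 of the 9 skeletal muscle genes, are on the vascular smooth muscle list too, so these lists are not separate.

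Between the libraries, the level of Mir143 moved by less than that of most genes on the CPM scale, and that of Mir145a by still less. The coefficient of variation over the libraries was 3.64% for Mir143 and 0.462% for Mir145a. The median over the 258 genes that had at least 10 CPM in each library was 9.08%, and 52 genes were below Mir143 and 8 below Mir145a. After scaling by the trimmed mean of M-values (TMM), the log2 ratio of replicate 2 over replicate 1 was −0.12 for Mir143 (95% exact interval −0.13 to −0.11 from counting) and −0.04 for Mir145a (−0.12 to 0.04). The median over all tested genes was −0.04 too.

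Of the 2 members tested, Mir143 was lower in replicate 2 (exact binomial test of counting error, adjusted p = 1.11e-65), and Mir145a did not pass (exact binomial test, adjusted p = 0.485). Mir145b was not tested. By the same test 131 of 258 genes, 50.8%, passed, 49 of them higher in replicate 2 and 82 lower, so 1 member of 2 is no more than the share among all genes. With sizes taken from total counts, 67 genes were higher and 66 lower, and Mir145a turned to 0.01 (exact binomial test, adjusted p = 0.876). The binomial test takes no account of variation between samples. edgeR estimated a common biological coefficient of variation of 12.8% over all tested genes, from the same differences between these libraries that are then tested. A gene that differs no more than most therefore has little prospect of passing. With that value neither member passed edgeR's exact test (adjusted p = 0.995 for both), where 3 genes passed and 15 were under 0.05 unadjusted.

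**Figure D4:**
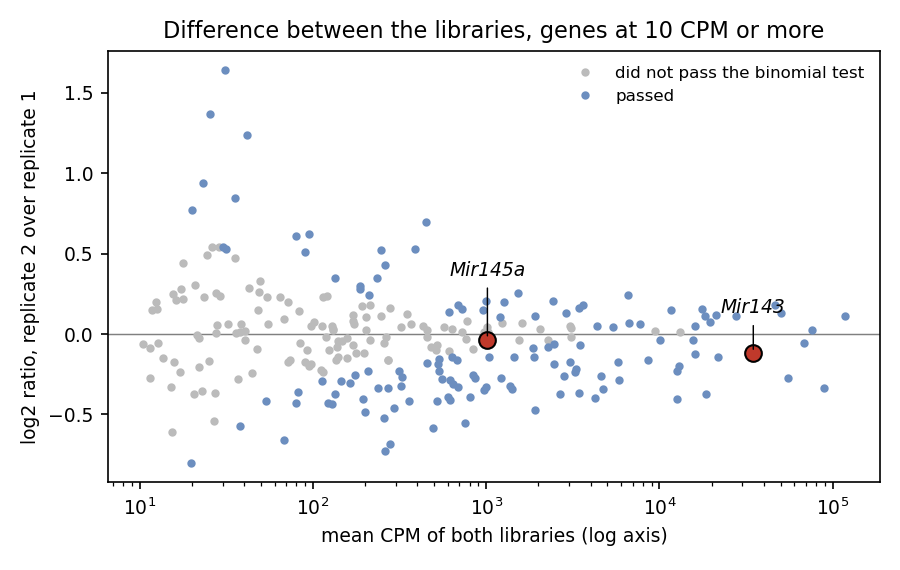
Log2 ratio of replicate 2 over replicate 1 against mean CPM (log axis) for 258 genes, coloured by the exact binomial test. Mir143 at −0.12 and Mir145a at −0.04 lie within the band of genes of similar abundance.

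The microRNAs of the other cell lists were read between the libraries in the same way. Summed over a list, the log2 ratio of replicate 2 over replicate 1 was −0.33 for the endothelial, −0.25 for the fibroblast, −0.23 for the epithelial, −0.09 for the vascular smooth muscle, −0.05 for the skeletal muscle, −0.04 for the leukocyte and 0.53 for the erythroid list. The summed ratio of the members was −0.12. Most of the endothelial sum is Mir126a (−0.33) and most of the skeletal muscle sum is Mir206 (−0.05), so each of these sums follows 1 gene. By the exact binomial test, 4 genes were higher and 6 lower in replicate 2 of 20 tested on the vascular smooth muscle list (median −0.03), 1 and 2 of 5 on the endothelial list (median −0.02) and 2 and 2 of 7 on the skeletal muscle list (median −0.05). The fibroblast list had 1 higher and 3 lower of 5 (median −0.14), the leukocyte list 0 and 1 of 5 (median 0.02), the erythroid list 2 and 0 of 2 (median 0.52) and the epithelial list 0 and 1 of 1 (−0.43). Beside the 50.8% called over all genes, the counts of such short lists are a description of these libraries and no result about a list. The part of blood, vessel or connective tissue content in the Mir143 ratio was not tested.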

How the data were processed

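The authors deposited raw read counts for each microRNA gene, in 1 table per library with 3 strand columns (either, own, opposite). The labels give a size range under 30 nt, and the deposited notes name build mm10 and annotation M21. The aligner and counter are not given in the sources used here. Replicate 1 had 2743657 own-strand gene reads out of 10056843, and replicate 2 had 2211254 out of 8189059. The 4 lines that name no gene held 72.7% and 73.0% of reads and stayed out of all sums. All 2202 identifiers were found in GENCODE M21.

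CPM was computed here from own-strand counts. The libraries were compared gene by gene, from 10 CPM upward in each, with an exact binomial test (two-sided) on TMM library sizes over the whole table (edgeR 4.0.16, R 4.3.3), with Benjamini-Hochberg adjustment at 0.05. Log2 ratios used log2(CPM + 1). The test was checked on simulated counts that hold counting error only, so that check does not cover variation between samples. Alternatives were DESeq2 1.42.0 sizes, total counts, other filters, either-strand counts, edgeR's exact test and other denominators. TMM over the tested genes was added after seeing the data. The genes named were all members, the 5 nearest in level to each, the 2 leading genes of each list, the 5 neighbouring pairs nearest in ratio and the pairs on the vascular smooth muscle list. Mir378a, Mirlet7c-1, Mir24-1, Mir199a-2, Mir221, Mir222 and the widest pair were named after their values were seen. So were Mir100, Mir10a, Mir195a, Mir29c and Mir29b-2. edgeR's dispersion was estimated from the same 2 libraries. The members and lists were chosen with earlier results of these data known.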

Additional observations from a re-analysis of the deposited data

How the results depend on the processing

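The ratio of Mir143 to Mir145a cannot depend on the denominator, which cancels within a library. Nor could the strand column change it (34.3 with reads on either strand), since neither gene had a read on the opposite strand. Its values with replicate 1 or replicate 2 alone were 35.3 and 33.3. Levels did depend on the denominator. Mir143 was at 45366 CPM with reads on either strand, 12163 CPM with all mapped reads as the denominator and 39415 CPM without Mir378a. Mir145a was at 1323, 354 and 1150 in the same order, and the 3 members held 4.67%, 1.25% and 4.06% of reads. Mir145b stayed at 0 reads. With 1 library left out, Mir143 ranged from 33902 to 35692 CPM, Mir145a from 1012 to 1018 CPM and the members' share from 3.49% to 3.67%. Mir143 ranked 6 with reads on either strand and 7 without Mir378a, and Mir145a ranked 64 and 71. The either-strand column set aside 647240 reads of replicate 1 and 508345 of replicate 2 as ambiguous. Mir126a, which overlaps Mir126b on the opposite strand, kept 1 read in each library there. On its own strand it had 269116 and 177856 reads. Its place above Mir143 is thus not kept in the either-strand column.

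Between the libraries, Mir143 stayed at −0.07 to −0.13 and past the binomial test under every scaling and filter tried. With edgeR's exact test its −0.12 was not past the threshold (adjusted p = 0.995), and 3 genes passed in place of 131, since that test adds the variation estimated from these same libraries. The adjusted p of Mir143 under the binomial alternatives ranged from 4.56e-80 to 2.55e-25. Mir145a turned from −0.04 to 0.01 with total counts and passed in none of the settings (adjusted p 0.322 to 0.995). The share of neighbouring pairs above Mir143 and Mir145a was 8.00% without genes found to share 20 bases with another hairpin, and 11.5% to 16.2% under the other filters. With 1 library left out it ranged from 13.3% to 18.7%. No paired analysis was possible because the labels give 1 group. At this depth a gene under 1.36 CPM in replicate 2 can have no read, so a low level of Mir145b was not detectable.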
